A study of Drosophila melanogaster with 84 samples.

Results

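The cells described here are neurons sorted with a driver for clock neurons, which also covers some other cells. They carry mRNA of 3 transcription factors, *hth*, *Hr51* and *toy*, and lie under upper limits on 5 genes that mark clock neuron groups. They were selected on their own UMI counts (a UMI tags 1 captured mRNA molecule). Levels are in TP10K, the UMIs of a gene per 10000 UMIs of a well. A well was a member with at least 10 TP10K of *hth*, at least 1 UMI each of *Hr51* and *toy*, under 100 TP10K of *Pdf* and of *ITP*, under 30 of *Trissin*, and under 10 of *CCHa1* and of *VGlut*. This rule took 265 of the 4595 wells that passed the limits on cell quality, 128 in DD and 137 in LD. Of those 4595 wells, 2761 had enough *hth*, 781 of these also had a UMI of *Hr51* and 722 a UMI of *toy* as well. The upper limit on *Pdf* removed 196 wells, that on *Trissin* 93, on *ITP* 85, on *VGlut* 83 and on *CCHa1* 10, with some wells over more than 1 limit.

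The study sorted EGFP-positive neurons from adult fly brains into plates, 1 neuron per well, and sequenced them with CEL-Seq2, a method that counts the 3' ends of mRNA molecules. EGFP was driven by Clk856-Gal4 in every group, a driver that covers most clock neurons and also some cells outside the clock network, so that EGFP alone does not name a cell type. The DD flies had spent 3 days in constant darkness and the LD flies were kept in cycles with equal hours of light and darkness, and brains of both were collected at 2, 6, 10, 14, 18 and 22 h (CT in DD, ZT in LD). Both sexes entered in equal numbers, no further treatment is given, and blockers of glutamate receptors and of sodium channels were in the saline in which all brains were dissected.

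Clock neurons keep time through a feedback loop in which CLK and its partner activate *per* and *tim*, and the PER and TIM proteins then repress CLK. In the same neurons *vri* and *Pdp1* form a second loop around *Clk*. The lateral neurons of this network, among them the dorsal lateral group (LNd), time morning and evening activity, and they are told apart by their neuropeptides, such as PDF, ITP, NPF and Trissin.

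The unit of all comparisons below is the batch, that is, the UMIs of all member wells with the same time point and the same batch number in the labels. The batches of a time point are called batch 1, 2 and 3 here. Members came from 72 of the 84 libraries, and 23 of the 28 batches held at least 3 of them, 11 in DD with 125 wells and 12 in LD with 137, while 3 wells of other batches were left out. CT14, CT18 and ZT18 each rest on 1 batch, and CT06 batch 2, ZT18 batch 1 and ZT22 batch 2 held no member. Per library, the wells together had 191993 to 3848092 UMIs in DD and 677725 to 4259643 in LD. The plates share their well barcodes, 92 of 96 of which occur in every library, but no pair of the kept wells held identical counts. The labels do not say whether batches came from separate cultures of flies, so p-values measure the spread between batches, and the DD and LD batches have no batch number in common, so that light and batch cannot be told apart.

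Members were deeper than the other wells. Their median was 21546 UMIs and 2885 genes, against 15842 UMIs and 2464 genes in the other 4330 wells, and they were deeper in 22 of 23 batches. The share of members among the kept wells ran from 0% to 16.4% per batch, and the highest shares were those of CT10 batch 2 (16.4%), ZT10 batch 3 (13.4%) and ZT18 batch 2 (10.2%). Within these batches the libraries could differ widely. In CT10 batch 2, 1 library held 19 members among 69 kept wells and the other 3 among 65. In CT10 batch 1 the libraries held 12 and 3 members, and in ZT18 batch 2 the 5 libraries held 15, 12, 3, 1 and 1. The part of the library in the share of members was not tested. At 6000 UMIs drawn from every well the same rule took 120 wells, 113 of them members at full depth, and the share fell to at most 5.95% in any batch. Of the members, 139 (52.5%) had a single UMI of *Hr51* and 23 (8.68%) a single UMI of *toy*. Just inside the limit the lowest *hth* value was 10.2 TP10K, and just outside the highest was 9.99. The highest *Pdf* value inside was 99.3 TP10K and the lowest outside 102. Members were not free of these mRNAs. They averaged 15.6 TP10K of *Pdf* and 9.17 of *ITP*, against 59.8 and 27.3 in other wells. At least 10 TP10K of *Pdf* was found in 136 members (51.3%) and of *ITP* in 95 (35.8%).

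**Figure D1:**
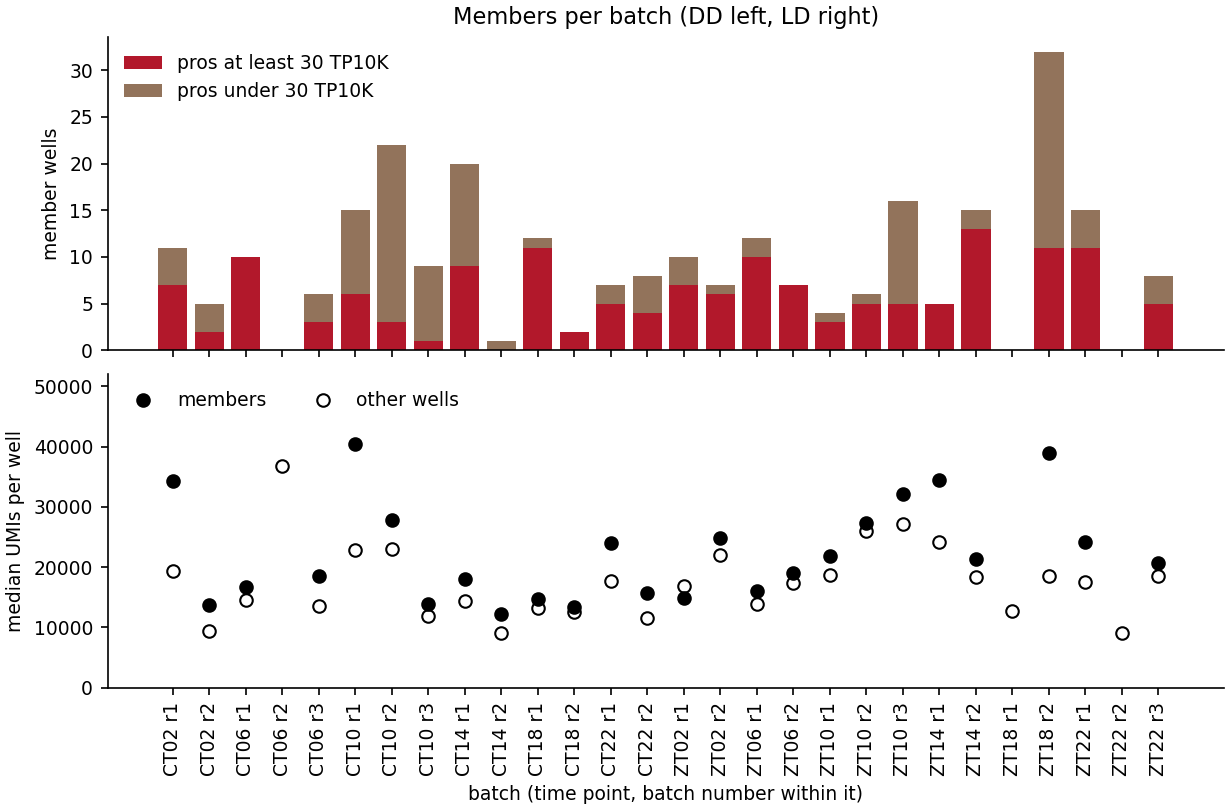
Upper panel, number of member wells in each of the 28 batches, split by the level of *pros* at 30 TP10K. Lower panel, median UMIs per well of members and of the other wells of the batch. Members were deeper than the other wells in 22 of the 23 batches with at least 3 of them, and CT10 batch 2 and ZT18 batch 2 held the most members (22 and 32).

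*hth*, a homeobox gene, averaged 26.2 ± 6.70 TP10K in members and 17.6 ± 2.82 in other wells (SD over 23 batches). *Hr51*, which encodes a nuclear receptor, averaged 1.06 ± 0.472 and 0.188 ± 0.0865 TP10K, and *toy*, a Pax6 homolog, 6.78 ± 3.30 and 2.2 ± 0.625. These values were fixed by the rule and are given as a description. Thinned to 6000 UMIs, 50.2% of members had a UMI of *Hr51* and 81.9% a UMI of *toy*, against 2.94% and 32.4% of the wells with *CCHa1* over its limit, in which *Hr51* should be low. *bi*, a T-box gene that is not in the rule, averaged 4.07 ± 2.35 TP10K in members and 2.84 ± 2.13 in other wells and was higher in members in 21 of 23 batches.

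The name under which the cells were proposed, other LNd-type cells, was met only in part by its own markers. *NPF*, which encodes neuropeptide F, averaged 1.76 ± 1.96 TP10K in members and 5.94 ± 7.47 in other wells and was higher in members in 4 of 23 batches. These values pool DD and LD, whereas the paper found *NPF* raised in most clusters in DD and classified on LD alone. Over the batches of both, the other wells had a median of 1.64 and a highest value of 24.9 TP10K. *NPF* reached 10 TP10K in 14 members (5.28%), 11 of them in DD and 3 in LD. It did so in 250 other wells (5.77%), which are not split by light here. Thinned to 6000 UMIs, 29.1% of members, 24.6% of other wells and 21.6% of wells with *CCHa1* over its limit had a UMI of *NPF*. *AstC-R2*, a receptor for the peptide Allatostatin C, was higher in members in 18 of 23 batches, with 2.59 ± 3.44 TP10K in members and 0.874 ± 0.501 in other wells, and its level differed between DD and LD as given further on. In the *Pdf* neighbours it averaged 2.49 TP10K, near the level of the members, which were higher in 9 of 21 batches. In the *ITP* and *Trissin* neighbours it averaged 0.714 and 0.459 TP10K, below the mean of the members. Thinned, 38.9% of members, 25.4% of other wells and 21.1% of wells with *CCHa1* over its limit had a UMI of it. The cells are therefore called *hth*, *Hr51* and *toy* positive cells here, or members.

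Members held neuronal markers and little of those of other tissues. The 6 pan-neuronal genes summed to 64.3 TP10K in members and 66.8 in other wells, and all 6 were above 0.8 TP10K. Of 7 glial genes only *Gs2* passed 0.8 TP10K, and the list summed to 1.56 TP10K in members and 1.90 in other wells, with 0.252 to 3.02 over the DD batches and 0.105 to 14.2 over the LD batches of members. The 7 photoreceptor genes summed to 0.1 TP10K in members against 0.264, and the 7 blood and fat body genes to 0.325 against 0.812. The summed level of 12 dorsal neuron markers was low in members. They summed to 20.6 TP10K against 66.8 in other wells and were lower in all 23 batches, with *VGlut* held down by the rule. *Dh31* averaged 2.11 ± 2.17 and 9 ± 3.58 TP10K, and *gl*, a zinc finger gene of dorsal neurons, 0.213 ± 0.187 and 1 ± 0.372. *D*, a Sox gene of the same list, went the other way, with 1.84 ± 1.09 TP10K in members and 0.975 ± 0.283 in other wells and higher values in members in 19 of 23 batches.

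The gene that led the members over all others was *pros* (FBgn0004595, chromosome 3R, 11328480 to 11407627 of dm6, plus strand), which encodes the homeodomain protein Prospero and is known for its part in the fate of neuroblast daughters. Over the 23 batches its lowest, median and highest values were 12.3, 93.5 and 176 TP10K in members, against 8.52, 12.7 and 25.1 in the other wells of the same batches. It averaged 93.6 ± 48.1 TP10K in members and 14.4 ± 4.97 in other wells, a log2 ratio of 2.70, and was higher in members in 23 of 23 batches. In wells that met the same 3 lower limits but exceeded a limit on a peptide, *pros* averaged 6.54 TP10K (*Pdf* wells), 6.25 (*ITP* wells) and 4.82 (*Trissin* wells). Members were above these neighbours in every batch that held at least 3 of each. None of these comparisons was tested, because the members were selected on counts of the same wells.

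**Figure D2:**
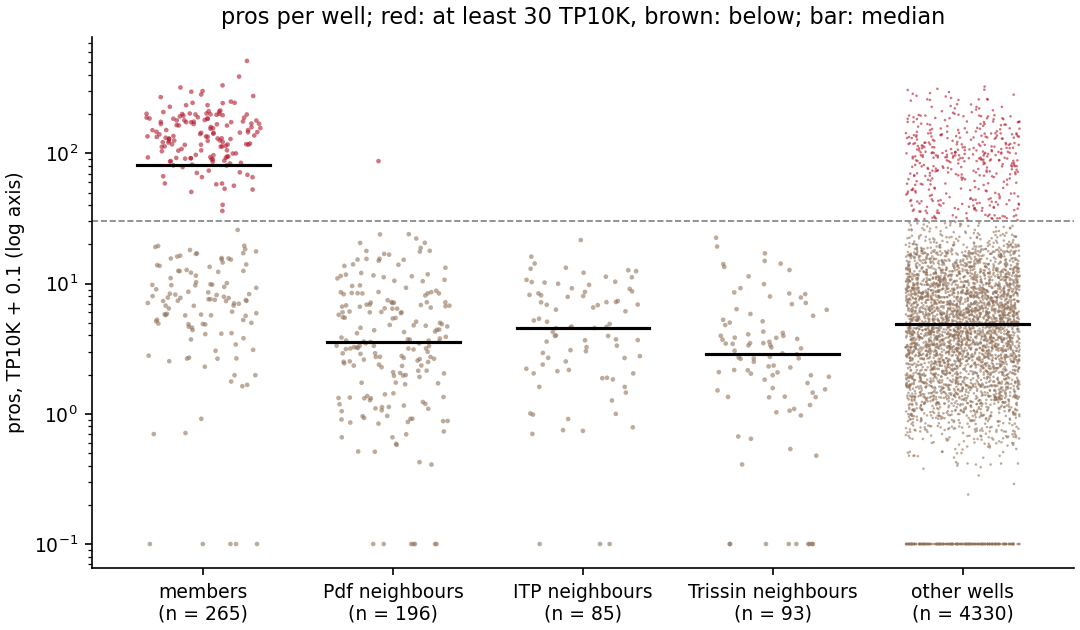
Level of *pros* in each well (TP10K with 0.1 added, log axis) in members, in the 3 neighbour sets that share the lower limits and in all other wells. Bars are medians and the dashed line marks 30 TP10K. Members form an upper and a lower group with 3 wells between 20 and 50 TP10K, and 1 point of the *Pdf* neighbours lies in the upper one.

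Other genes with a high ratio to the other wells were *CG42674* (4.68 ± 2.96 TP10K in members against 1.10 ± 0.393), *CG33543* (4.74 ± 2.79 against 1.42 ± 0.447) and *Best1*, a bestrophin chloride channel (1.27 ± 1.16 against 0.269 ± 0.079). *ct*, the homeobox gene cut, averaged 2.75 ± 1.32 TP10K in members against 0.902 ± 0.278 in other wells and was higher in 22 of 23 batches. *Ca-alpha1T*, the T-type calcium channel, averaged 14.9 ± 7.02 against 5.89 ± 1.38 and was higher in 23 of 23. *nvy*, a transcriptional corepressor, *dpr10*, a cell surface protein of the immunoglobulin family, *sca*, a secreted glycoprotein, *CG8745* and *CG11221* were also among the 15 highest ratios. *CR44832* was among them too but was higher in members in only 9 of 23 batches. At the other end stood *Trissin*, *VGlut*, *CCHa1* and *Pdf*, which the rule limits, together with *CG15082*, the protease gene *Mmp2* and the peptide genes *Dh31* and *Mip*. With 1 in place of 0.1 TP10K added to each value, 11 of the 15 highest and 6 of the 8 lowest were shared.

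The members were not uniform in *pros*, and the levels per well fell into separate ranges. A limit of 30 TP10K, set after the values had been seen, placed 151 members (57.0%) above it with a median of 136 TP10K and a lowest value of 36.0, and 114 below it with a median of 7.26 and a highest value of 25.7. These are called *pros*-high and *pros*-low members. Only 3 members lay between 20 and 50 TP10K. In the neighbour sets 1 of 196 *Pdf* wells, 0 of 85 *ITP* wells and 0 of 93 *Trissin* wells reached 30 TP10K, and in all other wells 435 (10.05%) did. Among the 120 wells that the rule took at 6000 UMIs, 87 (72.5%) were *pros*-high.

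The *pros*-high share differed widely between batches. Its lowest, median and highest values were 11.1%, 70.0% and 100% over 23 batches, with 63 *pros*-high and 65 *pros*-low members in DD and 88 and 49 in LD. In CT10 batch 2, 3 of 22 members were *pros*-high, in CT10 batch 3 it was 1 of 9 and in ZT18 batch 2 it was 11 of 32, whereas all 10 members of CT06 batch 1 were *pros*-high. *pros*-low members were deeper, with a median of 27038 UMIs against 19095 in *pros*-high members, and they held less EGFP mRNA, with a median of 28.3 EGFP UMIs per 10000 in *pros*-high and 7.05 in *pros*-low members. The medians of EGFP were 27.7 to 32.3 in the neighbour sets and 12.0 in all other wells. The part of depth and of EGFP in the split was not tested.

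*pros*-high members had the higher levels of the genes that led the members as a whole. The split was made on the same wells, so these values are a description over the 21 batches with at least 3 *pros*-high members and the 13 with at least 3 *pros*-low ones. *ct* averaged 3.96 ± 1.52 TP10K in *pros*-high and 0.373 ± 0.233 in *pros*-low members, and was higher in *pros*-high members in 11 of the 11 batches that had both. *fru*, a transcription factor gene with sex-specific forms, averaged 19.96 ± 7.36 and 6.59 ± 4.16 (11 of 11), and *Mef2*, another transcription factor gene, was 4.92 against 1.27 TP10K over those 11 batches. *AstC-R2* averaged 3.54 ± 4.28 and 0.528 ± 0.337 TP10K (10 of 11), *Ca-alpha1T* 19.2 ± 7.72 and 7.58 ± 3.80 (10 of 11) and *Proc*, the gene of the peptide proctolin, 2.59 ± 1.98 and 0.437 ± 0.478 (11 of 11). The rule's own genes differed too: *toy* averaged 8.37 ± 3.38 and 2.92 ± 2.04 TP10K, *Hr51* 1.31 ± 0.540 and 0.679 ± 0.371, and *hth* 22.6 ± 3.86 and 33.1 ± 11.0.

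Clock genes were split along the same line. *tim* averaged 16.5 ± 10.6 TP10K in *pros*-high and 6.75 ± 8.46 in *pros*-low members, *Clk* 2.05 ± 1.55 and 0.373 ± 0.420, *vri* 5.81 ± 4.43 and 1.63 ± 1.52, *Pdp1* 79.0 ± 38.9 and 43.1 ± 25.4, and *cry*, the gene of the blue light receptor cryptochrome, 1.5 ± 1.01 and 0.399 ± 0.359. *tim* and *Clk* were each higher in *pros*-high members in 10 of the 11 batches. A UMI of *Clk* was found in 103 *pros*-high members (68.2%) and 52 *pros*-low members (45.6%), of which the *pros*-low wells were the deeper. Because time points are unequally filled in the sets, these means also carry differences in time.

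Some transmitter genes were lower in *pros*-high members. *Gad1*, the enzyme of GABA synthesis, averaged 1.01 ± 0.898 TP10K in *pros*-high and 4.10 ± 5.14 in *pros*-low members, and reached 5 TP10K in 4 (2.65%) and 20 (17.5%) of them. *Vmat*, the vesicular monoamine transporter, reached 20 TP10K in 8 *pros*-high (5.30%) and 31 *pros*-low members (27.2%). *ChAT*, the enzyme of acetylcholine synthesis, was high in both sets, with 10.2 ± 2.61 and 13.6 ± 6.93 TP10K, and reached 5 TP10K in 127 (84.1%) and 83 (72.8%) wells. Over all members *ChAT* averaged 11.4 ± 4.77 TP10K, against 6.66 ± 2.15 in other wells, and 210 members (79.2%) reached 5 TP10K, against 47.5% of other wells. The share was like that of the *ITP* neighbours (78.8%) and *Trissin* neighbours (84.9%) and unlike that of the *Pdf* neighbours (18.9%). The genes lowest in *pros*-high relative to *pros*-low members began with the peptide gene *Hug* and the serotonin transporter gene *SerT*. Of the *Hug* UMIs of all members 78.4% lay in 2 wells, and *Hug* was higher in *pros*-high members in 3 of 11 batches. *Ggamma30A*, a G protein subunit, was lower in *pros*-high members in all 11 batches (4.93 TP10K in *pros*-high and 23.2 in *pros*-low members).

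**Figure D3:**
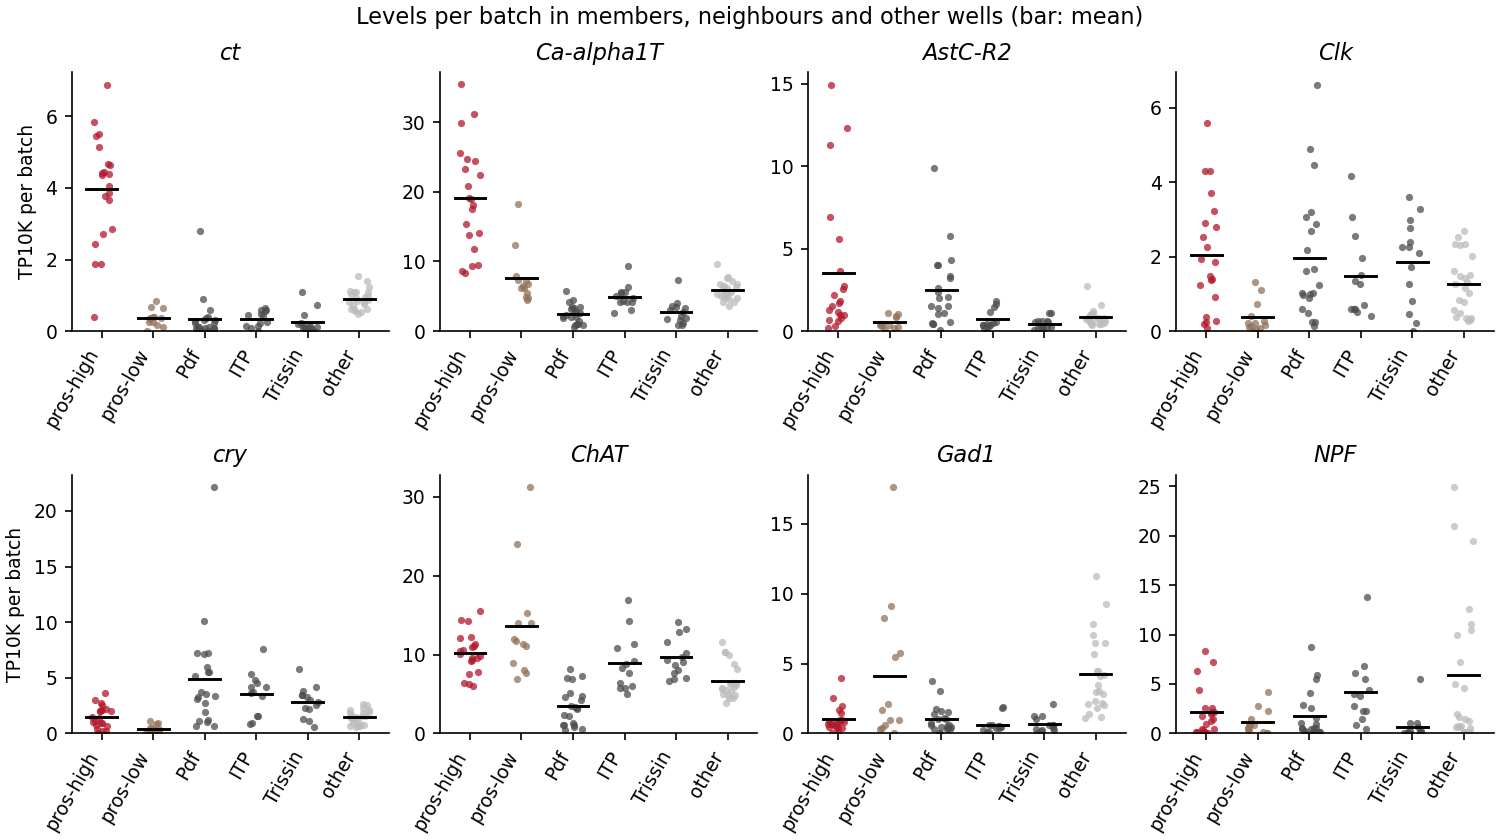
Levels of 8 genes (TP10K, 1 point per batch with at least 3 wells of the set, bars are means) in *pros*-high and *pros*-low members, in neighbours with *Pdf*, *ITP* or *Trissin* over its limit and in all other wells. The means of *ct* and *Ca-alpha1T* were highest in *pros*-high members, with values of 3.96 and 19.2 TP10K, and the mean of *cry* was lower in both member sets than in the 3 neighbour sets.

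The light receptor gene *cry* and the PDF receptor gene *Pdfr* were lower in members than in the neighbour sets. *cry* averaged 1.21 ± 0.805 TP10K in members, against 4.89 in *Pdf* wells, 3.57 in *ITP* wells and 2.84 in *Trissin* wells, and members were above these sets in 0 of 21, 0 of 13 and 1 of 14 batches. *Pdfr* averaged 2.54 ± 1.98 TP10K in members and 5.32, 8.64 and 9.42 in the same 3 sets. *norpA*, the phospholipase C of phototransduction and another gene of light input, went the other way and averaged 4.26 TP10K in members and 1.94, 2.57 and 2.95 in the 3 sets, and the 6 genes of that list summed to 11.0 TP10K in members and 10.4 in other wells. *tim* (12.4 ± 9.45 TP10K) and *Pdp1* (64.1 ± 29.9) were in the range of the neighbours, whose means were 8.85 to 15.2 TP10K for *tim* and 54.5 to 72.3 for *Pdp1*. Of 39 peptide receptors 2 passed 0.8 TP10K in members, *AstC-R2* and *Pdfr*.

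A clustering of the 265 members without mitochondrial and ribosomal genes gave 11 clusters, which are left unnamed. Clusters 6, 7, 9, 10 and 11 each came from a single batch. Cluster 8 held 36 wells, all *pros*-high and 35 of them from LD, and its leading genes were *AstC-R2*, *Hr38*, *Pvr*, *CG46121* and *sr*. Cluster 3 (52 wells from 15 batches) was 94.2% *pros*-high and led by *CG8745* and *CG5273*. Cluster 5 (34 wells from 15 batches) was 2.94% *pros*-high and led by *Gad1*, with 9.72 TP10K of it, followed by *CG14989*, *sano* and *SerT*. High and low *pros* levels were both found in clusters that spanned many batches, and what set the 5 clusters of a single batch apart could not be told apart from batch or library. Clusters 6, 7, 10 and 11 held 12, 19, 15 and 12 wells. Single libraries of their batches held the same numbers of members: CT10 batch 1 (12), CT10 batch 2 (19) and ZT18 batch 2 (15 and 12). Whether these were the same wells is not given here.

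In LD, 13 of 2568 genes tested cycled in the members (0.506%), with the quasi-likelihood test of edgeR over 12 batches. A call needed an adjusted p under 0.05 for a 24 h cosine and sine, a highest time point mean of at least 0.8 TP10K and of at least 1.5 times the lowest, and 205 genes had an unadjusted p under 0.05. Amplitudes below are log2 differences between the peak and the trough of the fit.

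*tim* (chromosome 2L, 3493986 to 3508119, minus strand), the partner of *per* in the feedback loop, was among them. Per LD batch it was at 2.03 and 2.23 TP10K at ZT02, 8.04 and 9.72 at ZT06, 14.4, 17.5 and 11.5 at ZT10, 34.1 and 30.6 at ZT14, 33.7 at ZT18 and 7.17 and 7.72 at ZT22. The batches of ZT14 and ZT18 did not overlap with those of any other time. The peak of the fit was at 14.5 h with an amplitude of 3.29 (edgeR adjusted p = 0.0126). In the other wells of the same batches the *tim* means ran between 1.06 TP10K at ZT02 and 25.4 at ZT18.

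*Pdp1* (chromosome 3L, 7811458 to 7867369, minus strand), an activator of *Clk*, cycled later. Its batches were at 40.2 and 60.8 TP10K at ZT02, 31.8 and 42.7 at ZT06, 62.1 to 65.9 at ZT10, 116 and 128 at ZT14, 127 at ZT18 and 76.2 and 100.25 at ZT22. The peak was at 17.1 h with an amplitude of 1.89 (edgeR adjusted p = 0.0126). Of the 7 core clock genes tested, *tim* and *Pdp1* passed, and 6 had an unadjusted p under 0.05. The median amplitude of the 7 genes was 2.46, against 0.67 over all genes tested. *Clk*, the activator of the loop, had an amplitude of 3.15 with its peak at 3.07 h, *vri*, its repressor, 2.43 at 13.1 h, *per* 3.39 at 15.1 h and *cry* 2.46 at 4.71 h, with edgeR adjusted p of 0.211, 0.187, 0.369 and 0.22. With DESeq2 all 4 passed, *Clk* (adjusted p = 0.0311), *vri* (adjusted p = 0.0118), *per* (adjusted p = 0.0496) and *cry* (adjusted p = 0.0384). *per* was at 13.9 TP10K in ZT14 batch 1, whose 5 members were all *pros*-high. In the *pros*-high members of ZT14 batch 2 it was at 2.49 TP10K. Without ZT14 batch 1 the edgeR adjusted p of *per* was 0.908. *cwo*, a repressor of CLK targets, had an amplitude of 0.67 (unadjusted p = 0.17 in edgeR).

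*CG15628* (FBgn0031632, chromosome 2L, 4821774 to 4828945, plus strand) had the smallest adjusted p. It was at 2.48 and 2.86 TP10K at ZT02, 7.23 and 5.34 at ZT06, 20.6, 22.2 and 10.7 at ZT10, 33.7 and 33.2 at ZT14, 11.5 at ZT18 and 4.76 and 3.73 at ZT22. The ZT14 batches were above all others. Its peak was at 13.4 h with an amplitude of 3.47 (edgeR adjusted p = 0.000511). It also passed a test against the other wells of the same batches (edgeR adjusted p = 0.0353), whose means were 3.38 TP10K at ZT02 and 14.8 at ZT14. That call was lost without 7 of the 12 batches left out in turn.

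The remaining cyclers peaked in the morning, with *CG31324* (13.97 h) and *CG11030* (14.7 h) as exceptions. *Argk*, arginine kinase, was at 15.4 and 13.3 TP10K at ZT02, 18.9 and 16.7 at ZT06 and 1.24 and 2.58 at ZT14, with its peak at 4.73 h (edgeR adjusted p = 0.0246). *CG17777* was at 9.61 and 16.0 TP10K at ZT02 and 0.619 and 1.39 at ZT14, with its peak at 0.77 h (edgeR adjusted p = 0.0126). *Best1* (2.86 h), *tna* (2.52 h), the adenylyl cyclase gene *Ac13E* (2.77 h), *CG33543* (4.03 h), *CG34357* (3.67 h) and FBgn0284248 (3.11 h), which has no symbol in the files, completed the list. *Best1*, *CG33543* and *CG17777* were also among the genes higher in *pros*-high than in *pros*-low members. Other lists held few cyclers: the 12 genes of the cyclic AMP pathway held 1, *Ac13E*, and the 14 neuropeptide genes tested held 0, with 6 at an unadjusted p under 0.05.

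Each of these calls rested on few batches. With the batch number of the labels, which recurs at several times, as a block in the fit, 1 gene was called, which was none of the 13 (*CG15628* had an edgeR adjusted p of 0.0634). Without ZT14 batch 2 the count of LD cyclers in the members was 1, without either ZT02 batch it was 2, without ZT06 batch 2 it was 5 and without ZT22 batch 3 it was 8. *CG15628* passed without each of the 12 batches, and *tim* and *Pdp1* passed without 9 of the 12. Restricted to *pros*-high members, a choice made after the split had been seen, the test called 24 of 2326 genes (1.03%), 12 of them among the 13 above. *tim* (amplitude 3.31, edgeR adjusted p = 0.0048), *Pdp1* (2.07, 0.0048) and *CG15628* (3.95) were again called, and *vri* (2.78, 0.0287), *nmo*, the gene of Nemo kinase (1.79, 0.0312), and *nvy* (2.70, 0.02) were added.

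**Figure D4:**
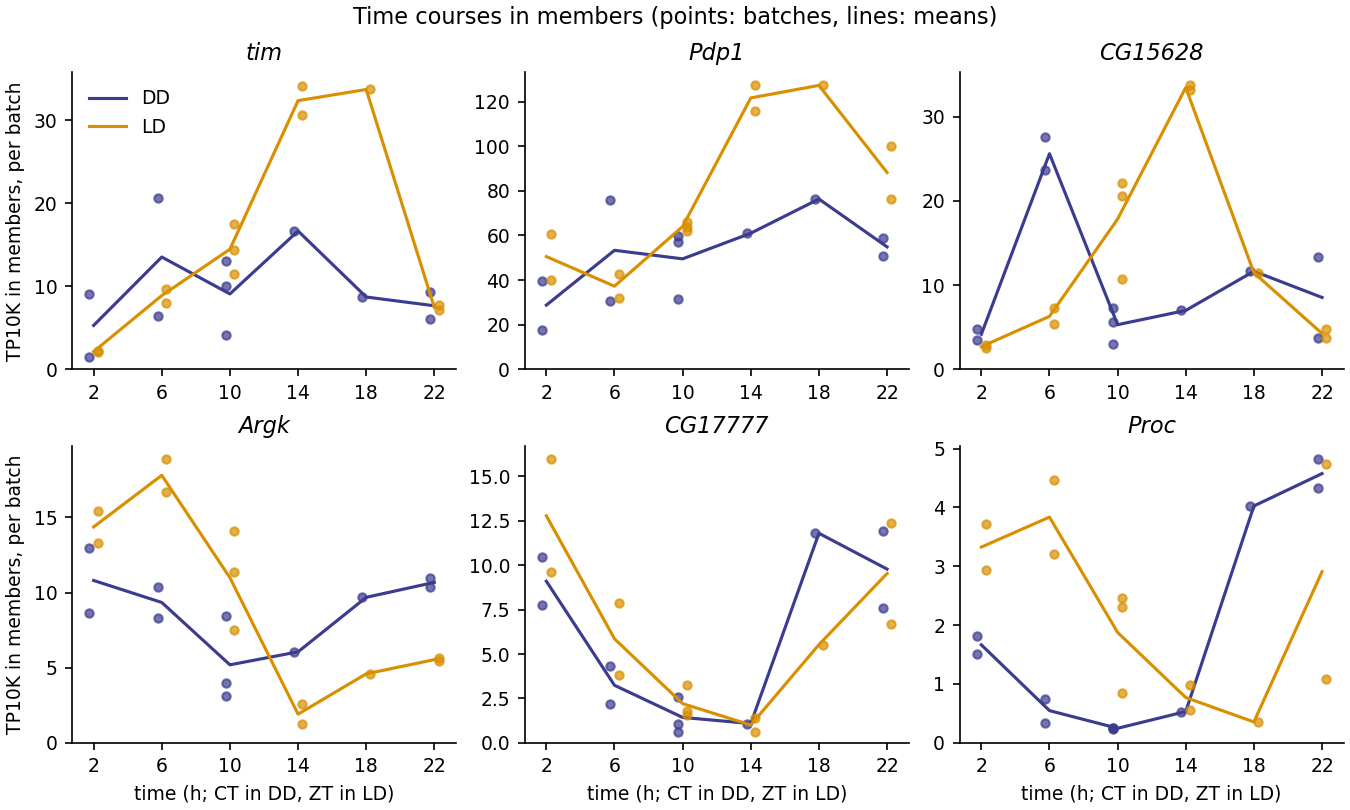
Levels of 6 genes in members (TP10K) by time of collection, 1 point per batch, with lines through the means of the time points, DD in blue and LD in orange. In LD *tim*, *Pdp1* and *CG15628* were highest at 14 or 18 h, *Argk* and *CG17777* were lowest at 14 h, and *Proc* was highest at 22 h in DD.

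In DD, 1 of 3002 genes tested cycled (0.0333%), over 11 batches, and 126 had an unadjusted p under 0.05. It was *Proc* (chromosome 2L, 7864642 to 7871432, minus strand), which encodes proctolin, a peptide known from insect muscle and neurons. Its DD batches were at 1.82 and 1.51 TP10K at CT02, 0.344 and 0.751 at CT06, 0.258, 0.251 and 0.233 at CT10, 0.532 at CT14, 4.02 at CT18 and 4.82 and 4.33 at CT22. The batches of CT18 and CT22 lay above all others. The peak was at 21.3 h with an amplitude of 4.21 (edgeR adjusted p = 0.00213), and the gene passed without each of the 11 batches in turn. Over all 22 alternative fits of *Proc*, these included, the call was lost in 4. The DD count was 0 at an *hth* limit of 20 TP10K, with the rule at 6000 UMIs and with a low-count filter blind to groups. The form of that filter was settled after other forms had been seen. The UMIs of *Proc* were spread over 155 wells, and the well with the most held 5.99% of them.

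None of the 7 core clock genes tested passed in DD with edgeR, 1 had an unadjusted p under 0.05, and with DESeq2 *Clk* passed (adjusted p = 0.00138). *tim* was at 9.05 and 1.51 TP10K at CT02, 20.7 and 6.38 at CT06, 13.1, 10.05 and 4.11 at CT10, 16.7 at CT14, 8.70 at CT18 and 9.27 and 6.02 at CT22. Batches of the same time differed by as much as times did. Its amplitude was 0.87 (edgeR adjusted p = 0.944). *Clk* was between 0.155 and 0.221 TP10K at CT10 and at 1.61 and 2.41 at CT22, with an amplitude of 3.48, a peak at 22.6 h and an edgeR adjusted p of 0.207. The *pros*-high share was 13.6% and 11.1% in CT10 batches 2 and 3 and 40.0% in batch 1, against 50% to 100% at CT06, and its part in the DD courses was not tested.

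Whether a rhythm differed between DD and LD was tested as an interaction, in which 2 of 3421 genes passed (0.0585%) and 235 had an unadjusted p under 0.05. *Proc* was among them (edgeR adjusted p = 0.0214). In LD its batches were at 2.94 and 3.71 TP10K at ZT02, 3.21 and 4.46 at ZT06, 0.848 to 2.47 at ZT10, 0.99 and 0.55 at ZT14, 0.355 at ZT18 and 4.74 and 1.08 at ZT22, and the fitted peak was at 3.45 h in LD, against 21.3 h in DD. The call was lost without CT18 batch 1 (edgeR adjusted p = 0.273) and without 8 other batches, and with the batch number as a block 0 genes passed. As given above it averaged 2.59 TP10K in *pros*-high and 0.437 in *pros*-low members, and the part of the *pros*-high share in its course was not tested. *Hug*, the gene of the peptide hugin, was the other (edgeR adjusted p = 0.0443), but 78.4% of its UMIs lay in 2 wells, 1985 in a well of CT10 batch 2 and 1808 in a well of ZT22 batch 1, and without ZT22 batch 1 the adjusted p was 0.947. No core clock gene passed the interaction in edgeR, and 2 of 7 had an unadjusted p under 0.05. With DESeq2 *Clk* passed (adjusted p = 0.036).

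Between DD and LD, with the time points as a factor, 44 of 3893 genes differed in the members (1.13%), 3 higher in DD (0.0771%) and 41 lower (1.05%), and 499 had an unadjusted p under 0.05. With total UMIs as library size in place of TMM factors the split was 10 higher and 18 lower. The median log2 difference of all genes was 0.05. Of the calls, 9 were entries for ribosomal RNA, all lower in DD. Polyadenylated mRNA was captured, and the other wells of the same batches had nearly the same levels of them: *28SrRNA-Psi:CR41609* averaged 17.0 TP10K in DD and 62.8 in LD in members, and 18.1 and 67.0 in other wells. The mitochondrial *mt:srRNA* had a lowest, median and highest value of 2.41, 4.46 and 12.6 TP10K in DD members and 14.7, 25.6 and 62.3 in LD members, which do not overlap (log2 -2.51 ± 0.25 SE, edgeR adjusted p = 7.11e-06). In other wells it averaged 6.90 TP10K in DD and 30.6 in LD.

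The receptor gene *AstC-R2* (chromosome 3L, 18485137 to 18502557, minus strand), a marker in the name of these cells, was lower in DD. Its lowest, median and highest values were 0.0776, 0.642 and 1.58 TP10K in the 11 DD batches and 0.706, 2.38 and 11.3 in the 12 LD batches. The ranges overlapped, and the 4 LD batches of ZT02 and ZT06, at 4.38 to 11.3 TP10K, were the highest. The log2 difference was -2.2 ± 0.48 SE (edgeR adjusted p = 0.0291). In sums over a batch, fewer cells with the mRNA and less mRNA per cell cannot be told apart. In other wells *AstC-R2* averaged 0.653 TP10K in DD and 1.08 in LD, and the difference in differences between members and other wells was -1.34 with an unadjusted p of 0.00401 and an adjusted p of 0.678 in edgeR. Among *pros*-high members alone the log2 difference was -1.95 (edgeR adjusted p = 0.1248), with 1.11 TP10K in DD and 5.36 in LD.

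Of 5 genes that neurons switch on with activity, *Hr38* and *sr* were called, both lower in DD, where 1.05% of all genes were. *Hr38*, a nuclear receptor gene, had a lowest, median and highest value of 0, 0.163 and 0.682 TP10K in DD members and 0.159, 0.983 and 8.93 in LD members (log2 -2.43 ± 0.55 SE, edgeR adjusted p = 0.0313). *sr*, an Egr-type transcription factor gene, had 0.329, 0.803 and 3.90 TP10K in DD members and 0.969, 3.46 and 8.49 in LD members (log2 -1.79 ± 0.43 SE, edgeR adjusted p = 0.0458). Both ranges overlapped, and the median log2 difference of the 5 genes was -0.51. The *sr* call was lost without 17 of the 23 batches left out in turn (edgeR adjusted p up to 0.119), that of *Hr38* without 11 and that of *AstC-R2* without 9. In other wells *sr* averaged 1.02 TP10K in DD and 1.65 in LD, and *Hr38* 0.311 and 0.821.

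Of 15 heat shock and chaperone genes 4 were called, each lower in DD, where 1.05% of all genes were. *Hsp70Aa*, an inducible chaperone, had a lowest, median and highest value of 0.473, 2.12 and 6.08 TP10K in DD members and 3.60, 5.44 and 9.80 in LD members (log2 -1.60 ± 0.30 SE, edgeR adjusted p = 0.00648). *stv*, the gene of the BAG family co-chaperone starvin, averaged 1.01 TP10K in DD and 2.12 in LD (log2 -1.21 ± 0.23 SE). *Hsp23* (log2 -1.16 ± 0.25 SE) and *Hsp27* (log2 -1.17 ± 0.27 SE), small heat shock proteins, were also called. The median log2 difference of the 15 was -1.07. The *Hsp27* call was lost without 14 of the 23 batches in turn and that of *Hsp23* without 6, while *Hsp70Aa* and *stv* passed without each. The other wells shared this direction, with 2.11 TP10K of *Hsp70Aa* in DD and 4.27 in LD and 0.961 and 1.85 of *stv*. Handling of the brains was not recorded per batch and its part in these values was not tested.

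Signalling genes lower in DD included *Pka-C1*, the catalytic subunit of protein kinase A, and *Ca-alpha1T*. *Pka-C1* had a lowest, median and highest value of 5.41, 7.2 and 9.40 TP10K in DD members and 7.42, 10.1 and 14.6 in LD members (log2 -0.76 ± 0.14 SE, edgeR adjusted p = 0.00648). Its mean in other wells was 9.84 TP10K in DD and 11.0 in LD. *Ca-alpha1T* had 5.07, 10.6 and 28.1 TP10K in DD members and 7.33, 18.9 and 25.6 in LD members (log2 -1.08 ± 0.25 SE, edgeR adjusted p = 0.0322). *Rab3-GEF*, an exchange factor for the vesicle protein Rab3 (log2 -1.36 ± 0.21 SE), *Mkp3*, a phosphatase of MAP kinases (log2 -1.02 ± 0.18 SE), *Pvr*, a receptor tyrosine kinase (log2 -1.90 ± 0.35 SE), and *nmo* (log2 -0.999 ± 0.243 SE) were called too. The *Pvr* batches did not overlap, with 0 to 0.402 TP10K in DD and 0.484 to 2.01 in LD. The 3 genes higher in DD were *P58IPK*, a chaperone of the endoplasmic reticulum (0.356 TP10K in DD and 0.0742 in LD), *CG8248* (0.956 and 0.245) and *wkd* (1.01 and 0.379). Left out in turn, 16 of the 23 batches ended the call of *Ca-alpha1T*, 20 that of *nmo*, 17 that of *P58IPK*, 13 that of *CG8248* and 18 that of *wkd*, and none ended those of *Pka-C1*, *Rab3-GEF*, *Mkp3*, *Pvr* and *mt:srRNA*. None of the 7 core clock genes tested was called in edgeR, with 4 at an unadjusted p under 0.05, while DESeq2 called *Clk* (adjusted p = 0.0456) and *vri* (adjusted p = 0.0439), both lower in DD.

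**Figure D5:**
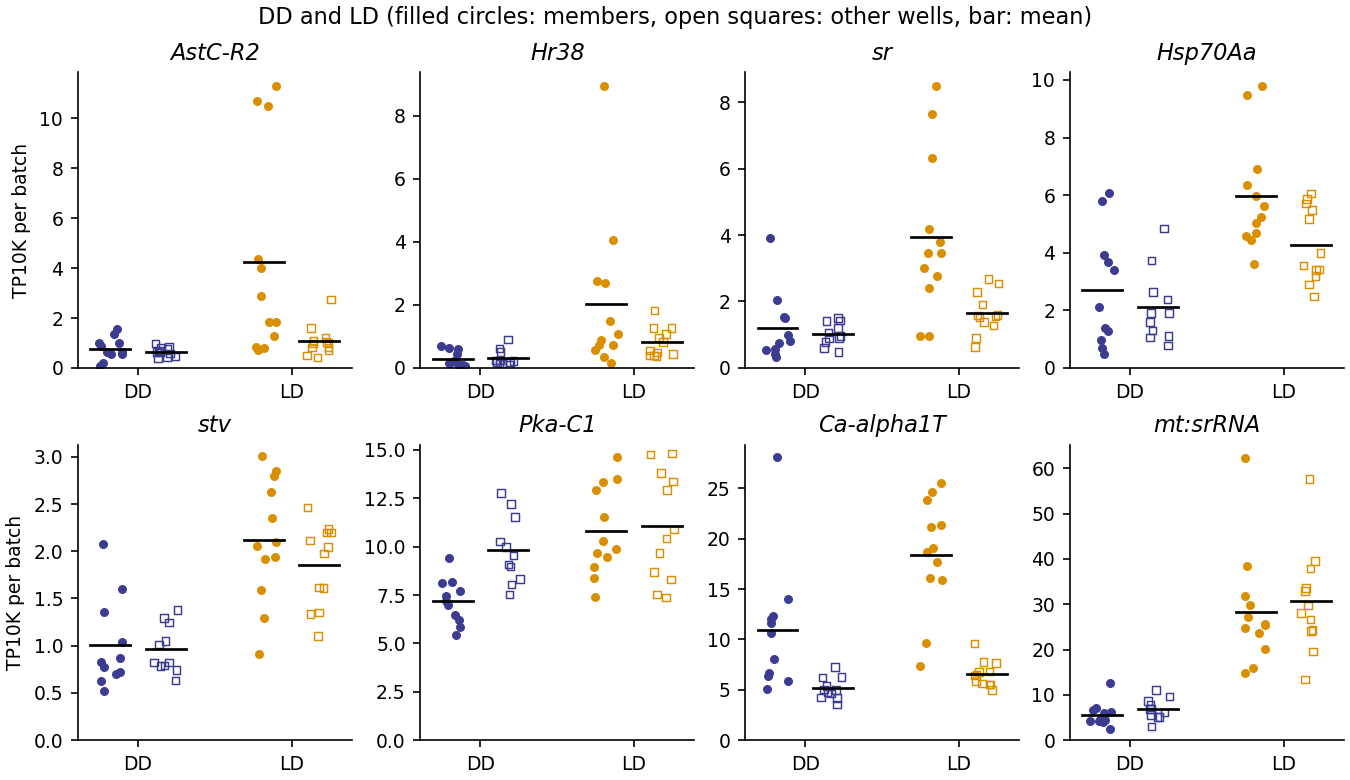
Levels of 8 genes called between DD and LD (TP10K, 1 point per batch, bars are means), in members and in the other wells of the same batches. *mt:srRNA*, *Hsp70Aa* and *stv* were lower in DD in both sets of wells, and *AstC-R2* reached over 10 TP10K in 3 LD batches of members only.

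Without single batches the count of genes called between DD and LD was 20 to 56. It was lower in *pros*-high members and without the batches with many members, subsets that were chosen after the data had been seen. In the *pros*-high members alone 17 genes were called, 2 higher and 15 lower in DD, among them *sr* (log2 -2.02, edgeR adjusted p = 0.0328), *Pka-C1* (log2 -0.78, adjusted p = 0.0428) and *Rab3-GEF* (log2 -1.31, adjusted p = 0.0093). Without the 6 batches with at least 9% members the count was 12. The *pros*-high share was 49.2% in DD and 64.2% in LD, and its part in the contrast was not tested beyond these fits.

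Whether the contrast was larger in members than in the other wells of the same batches was tested with the batch as a block. Only *CG34254* passed (0.0257% of 3893 genes, with 201 at an unadjusted p under 0.05), with a log2 of 4.61 ± 0.75 SE (edgeR adjusted p = 0.0113). Its mean in members was 0.310 TP10K in DD and 0.0126 in LD, its 145 UMIs lay in 27 wells, and 2 wells held 43.4% of them. With DESeq2 0 genes passed.

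The LD rhythm of members differed from that of the other wells of the same batches for 8 of 2568 genes (0.312%), with 213 at an unadjusted p under 0.05. These include *Trissin*, whose level in members is capped by the rule and which is therefore no result. *CG34357* was at 7.49 TP10K in members at ZT02, 6.35 at ZT06 and 0.635 at ZT14, against 1.70, 1.51 and 1.21 TP10K in other wells (edgeR adjusted p = 0.00951). *Best1* was at 3.62 TP10K at ZT02 and 0.372 at ZT14 in members and at 0.336 and 0.299 in other wells (edgeR adjusted p = 0.0122). The other wells had nearly level means of both genes. *Rgk3*, a small GTPase of the RGK family, was highest at ZT10 in members (1.48 TP10K, against 0.239 in other wells) and highest at ZT22 in other wells (0.382 TP10K in members, against 0.99 in other wells). *sm* and *Rbp6*, both RNA-binding proteins, were at 54.7 and 46.6 TP10K at ZT02 in members and at 28.3 and 27.6 in other wells. *CG15628* and *CG31760* passed as well. Left out in turn, 10 of the 12 batches ended the call of *CG31760*, 9 that of *Rbp6*, 7 that of *CG15628* and 6 that of *sm*. For *Best1* 2 batches did so, for *Rgk3* 1 and for *CG34357* 0.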

How the data were processed

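Single EGFP-positive neurons were sorted into plates and sequenced with CEL-Seq2. The authors demultiplexed reads with bcl2fastq, aligned them to dm6 with STAR through zUMIs and deposited tables of whole-number UMI counts per gene and well. The names of bcl2fastq and dm6 are also in the submitters' processing notes.

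Only wells in which 1000 to 6000 genes were detected, whose total was 6000 to 75000 UMIs and whose Shannon entropy (natural log) reached 5.5 were kept. Spike-in (2.14% of UMIs) and EGFP (0.213%) counts were left out of all totals. TP10K values are UMIs per 10000. Counts of members were summed per batch with at least 3 of them and fitted in edgeR 4.0.16 (quasi-likelihood F test, R 4.3.3) with TMM factors, filterByExpr on the design and Benjamini-Hochberg adjustment over all genes tested. A call needed an adjusted p under 0.05 and, for rhythms, a time point mean of at least 0.8 TP10K and a ratio of highest to lowest of at least 1.5. SE values of log2 differences were back-calculated as the absolute log2 over the square root of F, and are approximate. The form of the filter was settled after results of other forms had been seen. DESeq2 1.42.0 was an alternative, and the tests were tested on simulated data. Members were clustered with scanpy 1.11.5 and leidenalg 0.10.2. No doublet caller was run. Ratios of members to other wells used 0.1 TP10K added.

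The members and gene lists were chosen with earlier results of these data known. Named genes were those of the rule and of the core clock, the 12 LD or DD cyclers and the 10 genes per direction between DD and LD with the smallest adjusted p, 8 per interaction, the 15 highest and 8 lowest ratios to other wells, and the highest or called genes of each list. Genes named for the *pros* split and for *pros*-high members alone were chosen after their values had been seen. Coordinates are from the Ensembl annotation, in which 55 of 60 named genes were found. The alternatives left out each batch in turn, and changed the scaling, the low-count filter, the least number of members per batch, the *hth* limit, the comparator, the form of the time term and the block on batch number.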

Additional observations from a re-analysis of the deposited data

Results flagged for a closer look

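The following genes were singled out because their effect differed between 2 groups by a test of the difference itself, with edgeR adjusted p values. Between DD and LD the rhythm differed for *Proc* (adjusted p = 0.0214) and for *Hug* (adjusted p = 0.0443), the second with 78.4% of its UMIs in 2 wells. The difference between DD and LD was larger in members than in the other wells of the same batches for *CG34254* (adjusted p = 0.0113). The LD rhythm differed between members and the other wells for *CG34357* (adjusted p = 0.00951), *Best1* (adjusted p = 0.0122), *Rgk3* (adjusted p = 0.0122), *sm* (adjusted p = 0.0353), *CG15628* (adjusted p = 0.0353), *Rbp6* (adjusted p = 0.0418) and *CG31760* (adjusted p = 0.0491). Of these, the calls of *sm*, *CG15628*, *Rbp6* and *CG31760* were lost without 6, 7, 9 and 10 of the 12 batches left out in turn. No explanation was tested.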

How the results depend on the processing

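No gene called between DD and LD, or for a light difference against the other wells, reversed its direction under the alternatives run. Direction was not compared for rhythms or for genes that were not called. The alternatives did not cover the *pros* split, the neighbour sets or the clusters. The counts of calls moved widely, and the cause was not tested. The thinned rule, the leaving out of 6 batches (CT10 batches 1 and 2, CT14 batch 1, ZT10 batches 2 and 3, ZT18 batch 2), the *pros* limit and the other forms of the filter were chosen after seeing the data. Depth limits the rule, since 1 UMI of *Hr51* made many wells members.

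LD cyclers (13) numbered 212 with no filter on low counts, 53 with DESeq2, 4 and 6 with *hth* limits of 20 and 5 TP10K, 1 with the thinned rule, 1 without the 6 batches, 24 among *pros*-high members and 2 with time as a factor. The DD count (1) was 115 with no filter, 7 with DESeq2, 3 with time as a factor, and 0 at an *hth* limit of 20, with the thinned rule and with a filter blind to groups. The DD against LD count (44) was 28 with total UMIs as library size, 102 with no filter (48 higher, 54 lower), 113 with DESeq2 (33 higher, 80 lower), 29 with at least 6 members per batch, 16 at an *hth* limit of 20, 12 with the thinned rule, 12 without the 6 batches and 17 among *pros*-high members. The rhythm by light count (2) was 371 with no filter, 16 with DESeq2 and 0 at either *hth* limit, with the thinned rule, without the 6 batches and with the blind filter. The count of light differences particular to members by test (1) was 0 with DESeq2, at either *hth* limit, with the thinned rule, without the 6 batches, among *pros*-high members, with the blind filter and against the neighbour sets. The count of LD rhythms that differed from other wells (8) was 5 with total UMIs, 64 with no filter, 26 with DESeq2, 1 with at least 6 members, 2 and 3 at *hth* limits of 20 and 5, 26 among *pros*-high members, 74 with a filter on both sums and 15 against the neighbour sets. With 1 TP10K added the log2 ratio to other wells was 0.79 for *Hr51* and -1.10 for *CCHa1*.

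Without each batch in turn the LD count was 1 to 14, lowest without ZT14 batch 2, and the DD count 1 to 4, with 4 without CT02 batch 1 and 2 without CT10 batch 3. The DD against LD count was 20 to 56, lowest without ZT02 batch 1 and highest without ZT18 batch 2, and 14 of the 23 batches each moved it by over 1.5 times. The rhythm by light count was 0 to 3, and 0 without either batch of CT02 or CT22, CT10 batch 1 or 2, CT18 batch 1 or ZT06 batch 2. The count for members against other wells by light was 0 to 1, and 0 without CT02 batch 1, CT10 batch 1, ZT06 batch 1 or ZT18 batch 2. The count for LD rhythms against other wells was 2 to 34, with 34 without ZT10 batch 3, 2 without ZT02 batch 2 or ZT14 batch 1, and 3 without ZT02 batch 1, ZT06 batch 2 or ZT22 batch 1.

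Whether batches with the same batch number deviated together could not be settled. Of such pairs, 2 of 8 in LD and 0 of 1 in DD correlated above 0.1, against 12 of 40 and 8 of 29 pairs with other numbers. Deviations were taken from time point means, so the 2 batches of a time mirror each other and the pairs are not independent. The LD pairs with the same number ran from -0.145 to 0.395. With the batch number as a replicate block 1 LD cycler and 0 rhythm by light genes were called. The DD rhythm with this block could not be fitted and was not run.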
